A study of Mus musculus with 4 samples.

Results

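The squamous differentiation genes described here were 10 genes named one by one, namely Sprr1a, Sprr1b, Ivl, Tgm1, Krt10, Krt13, Krt4, Sbsn, Klf4 and Dsg3, among the 54446 genes listed for the series. They were named for their known roles, with earlier results of these data known, and each of the 10 was found in the expression table. The libraries came from the mammary gland of wild-type C57BL/6 mice, from which the study sorted basal cells (Lin-, CD29 high, CD24+) and luminal cells (Lin-, CD29 low, CD24+) by flow cytometry and grew them as 3D colonies in Matrigel, a gel of basement membrane proteins, in medium with EGF and insulin-transferrin-selenium. The medium held either DMSO, the solvent control, or 100 μM baicalin, a flavonoid glucuronide from Scutellaria roots, and the study asked how baicalin changed mRNA levels in the 2 cell types. The 4 groups were therefore basal DMSO, basal baicalin, luminal DMSO and luminal baicalin, with 1 library in each. With no replicates there was no test between conditions, and every interval given below covers counting error only, not the spread between cultures or animals. The labels give neither the age of the mice, nor how many were pooled, nor how long the colonies were treated. The study's methods describe young adult female mice as the source of sorted cells and several days of culture before colonies were counted, without saying which mice or which culture day gave these libraries.

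Squamous epithelia such as the epidermis renew from a basal layer, and cells that leave it build a cornified envelope, a protein shell under the membrane that is made of small proline-rich proteins, involucrin and loricrin crosslinked by transglutaminases. Along the way the cells exchange their basal keratins for differentiation keratins and strengthen their desmosomes, the junctions that tie keratin filaments of neighbouring cells together. Normal mammary epithelium is not cornified, but mammary epithelial cells can express squamous genes in culture and in squamous metaplasia.

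Several of these genes share a short sequence pattern in the promoter. Of the 10 genes, 8 had a promoter in the RefSeq table for GRCm38.p6, and Krt4 and Dsg3 had none there. The AP-1 motif was searched as TGANTCA, with any base at N, which reads as the same pattern on both strands. It occurred in the 250 bases before the start site of 5 of the 8, namely Sprr1a, Sprr1b, Ivl, Krt13 and Sbsn. The share was 7.82% among the 27025 genes with a promoter in the table. Matches were TGAGTCA in Sprr1a, TGACTCA in Ivl, and both TGAATCA and TGACTCA in Krt13. In Sprr1b and Sbsn the only match was TGAATCA, with A at N. The share of all genes that match with only C or G at N was not tested. AP-1, the family of Fos and Jun dimers, is a textbook activator of cornified envelope genes. The 4 promoters of genes with the motif that also carried more than the floor of fragments in both luminal-labelled libraries are shown on the gene's own strand, 5′ to 3′, ending at the base before the start site, with the AP-1 motif in capitals. The Sprr1a promoter lies at chr3:92485882-92486131 on the minus strand, that of Sprr1b at chr3:92438780-92439029 on the minus strand, that of Ivl at chr3:92573736-92573985 on the minus strand and that of Sbsn at chr7:30751221-30751470 on the plus strand.
Sprr1a: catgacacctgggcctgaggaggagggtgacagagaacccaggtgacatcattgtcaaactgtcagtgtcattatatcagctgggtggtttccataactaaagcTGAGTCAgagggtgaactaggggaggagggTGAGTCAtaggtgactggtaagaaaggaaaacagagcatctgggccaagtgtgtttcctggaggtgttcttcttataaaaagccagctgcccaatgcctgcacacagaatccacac
Sprr1b: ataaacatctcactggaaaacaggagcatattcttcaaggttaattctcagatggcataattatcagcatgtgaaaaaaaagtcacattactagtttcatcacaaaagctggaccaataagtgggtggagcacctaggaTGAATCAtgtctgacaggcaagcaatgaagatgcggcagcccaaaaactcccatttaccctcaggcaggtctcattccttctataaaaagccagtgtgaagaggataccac
Ivl: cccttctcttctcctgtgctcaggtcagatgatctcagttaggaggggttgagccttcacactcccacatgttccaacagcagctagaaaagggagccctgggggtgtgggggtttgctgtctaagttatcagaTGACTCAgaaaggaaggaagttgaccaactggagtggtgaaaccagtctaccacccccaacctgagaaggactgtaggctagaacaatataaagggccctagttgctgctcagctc
Sbsn: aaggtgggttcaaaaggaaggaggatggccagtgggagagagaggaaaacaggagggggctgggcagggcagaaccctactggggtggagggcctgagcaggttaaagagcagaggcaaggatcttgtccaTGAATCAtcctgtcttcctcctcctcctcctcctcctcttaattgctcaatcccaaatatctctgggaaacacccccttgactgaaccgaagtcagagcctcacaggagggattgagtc
The motif began 146 and 116 bases before the start site in Sprr1a, 111 bases before it in Sprr1b, 116 bases in Ivl and 119 bases in Sbsn. The KLF motif CCNCNCCC, searched on both strands, occurred in a promoter of 4 of the 8 genes (Ivl, Tgm1, Krt13 and Klf4), against 48.5% of all genes with one. Tgm1 and Krt13 had 2 promoters each in the table, and a gene was counted where either held the motif. A match is a run of letters in this window and not a measured binding site.

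Levels are given as FPKM, fragments normalised by exon length and by library depth, as deposited, and the change of a gene as the difference in log2(FPKM + 1). A gene is said to have risen or fallen where this difference was larger than 1, which is the threshold used throughout. Adding 1 FPKM understates the change of genes near or under 1 FPKM, so the plain ratio of FPKM is given as well, with its exact 95% Clopper-Pearson interval from the fragments behind it. Between 19355910 and 20648725 fragments lay behind the libraries, so 1 fragment on 1 kb of exon was worth 0.0484 to 0.0517 FPKM. A library at 0 was compared at the limit of the exact interval and, where given, at a floor of 3 fragments, and no fold is given where both libraries were at or under it. Of the 10 genes, 7 were above 0 FPKM in all 4 libraries, and Sprr1b, Ivl and Krt13 were not.

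The cell type labels were checked against markers, because they decide what each comparison means. The 10 markers of basal cells summed to 1651 FPKM in basal DMSO, 432 in basal baicalin, 5105 in luminal DMSO and 6122 in luminal baicalin, and each of the 10 was higher in the library labelled luminal under DMSO. The 10 luminal markers summed to 4617, 3280, 1397 and 1208 FPKM in the same order, so that the markers went against the labels in both treatments. The groups are therefore called basal-labelled and luminal-labelled throughout, and whether they were exchanged was not tested. Hormone receptor genes, which mark a subset of luminal cells, were looked up after the markers were seen and were highest in luminal DMSO. Esr1, the oestrogen receptor, stood at 0.992, 0.982, 1.44 and 0.723 FPKM and Pgr, the progesterone receptor, at 1.08, 0.911, 4.81 and 2.09 FPKM in the same order. Markers of fibroblasts (7 genes), leukocytes (6 genes) and endothelial cells (5 genes) summed to at most 11.2, 9.21 and 3.46 FPKM in any library.

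Squamous genes were highest in the luminal-labelled library with baicalin and mostly lowest in the basal-labelled library with baicalin. The highest FPKM of the 4 libraries was in luminal baicalin for 8 of the 10 genes, the exceptions being Krt4 and Krt13, while 19.3% of the 25936 genes above 0 in at least 1 library were highest there. The lowest was in basal baicalin for 6 of the 10 (Dsg3, Krt4, Tgm1, Sprr1a, Ivl and Sbsn), against 21.5% of those genes. Summed over the 10 genes, the level was 73.8 FPKM in basal DMSO, 56.8 in basal baicalin, 131 in luminal DMSO and 371 in luminal baicalin, and Dsg3 and Klf4 made up most of each sum. In these bulk libraries, a change in the share of cells that express a gene and a change in its RNA per cell cannot be told apart.

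**Figure D1:**
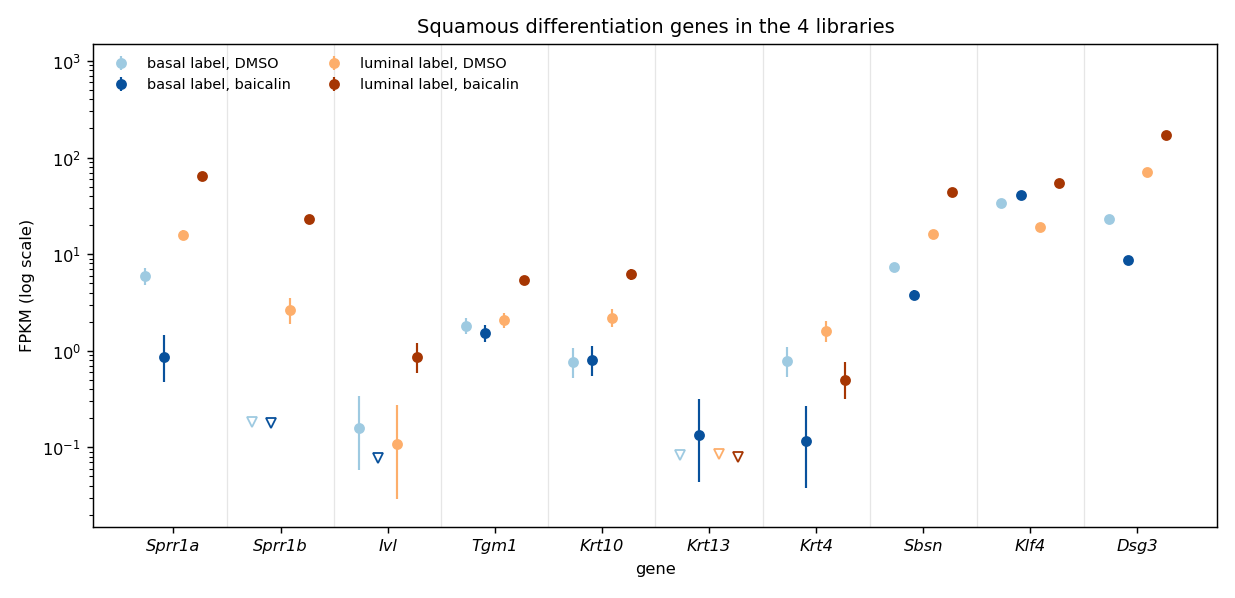
FPKM on a log scale of each of the 10 squamous genes in the 4 libraries, 1 point per library, with bars for the exact 95% counting interval and open triangles at the 3-fragment floor for a library at 0. Luminal baicalin is the highest point for 8 genes, from 0.857 FPKM for Ivl to 173 FPKM for Dsg3, while Krt4 is highest in luminal DMSO and Krt13 has fragments in basal baicalin alone.

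With baicalin, 6 of the 7 genes above 0 in all libraries rose in the luminal-labelled cells and none fell, where 2.37% of the 17787 such genes in the table rose and 1.59% fell. The 6 were Sprr1a, Sbsn, Klf4, Dsg3, Krt10 and Tgm1. Over all 54446 genes with no filter, 0.909% rose, 0.658% fell, and Sprr1b joined the 6 to make 7 of 10, with none lower. In the basal-labelled cells, 2 of the 7 fell (Sprr1a and Dsg3), against 3.33% of genes, and none rose, against 2.15%. With no filter these counts were 2 and 0 of 10, against 1.17% and 0.823%. The median change over all filtered genes was 0.01 in the basal-labelled and -0.02 in the luminal-labelled libraries on the log2 scale.

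**Figure D2:**
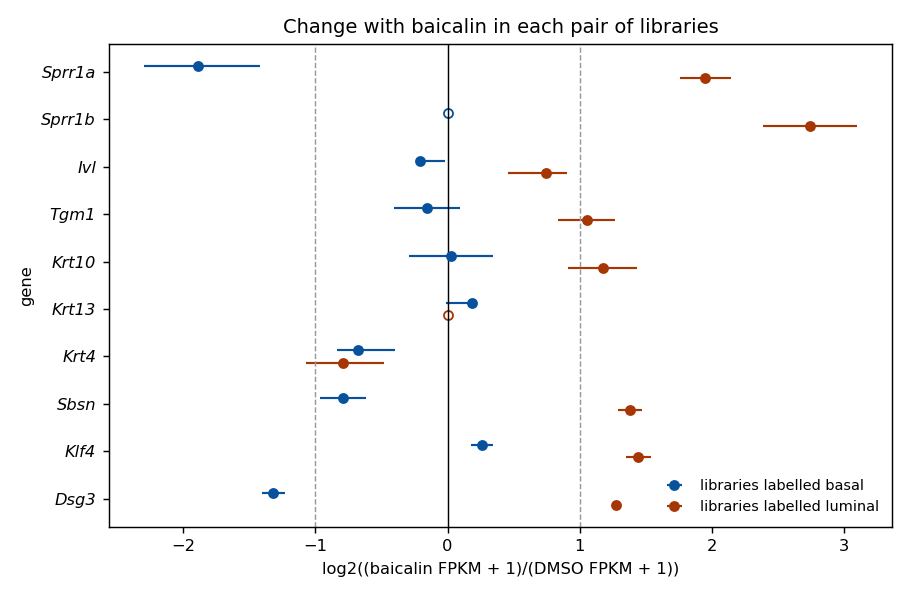
Change with baicalin on the log2(FPKM + 1) scale for each of the 10 genes, with the basal-labelled pair in blue and the luminal-labelled pair in red, bars for the exact 95% counting interval and dashed lines at a change of 1 in either direction. Open circles mark genes at 0 in both libraries of a pair; Sprr1a, Ivl, Sbsn and Dsg3 lie on opposite sides of 0 in the 2 pairs with intervals that do not reach it.

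Envelope precursors were led by Sprr1a, a small proline-rich protein that is crosslinked into the envelope (ENSMUSG00000050359, chr3:92483952-92485895, minus strand). Its level was 5.87 FPKM in basal DMSO, 0.856 in basal baicalin, 15.8 in luminal DMSO and 64.0 in luminal baicalin. The 4 libraries were all separated beyond counting error, and the gene moved in opposite directions in the 2 cell labels. It fell in the basal-labelled cells by 1.89 on the log2 scale, a level 6.86-fold lower (interval 3.89 to 13.0). It rose in the luminal-labelled cells by 1.95 on the log2 scale, a ratio of 4.04 (interval 3.52 to 4.66). The luminal-labelled level was 2.70 times the basal-labelled level under DMSO (interval 2.12 to 3.46) and 74.7 times under baicalin (interval 44.3 to 137), where the basal-labelled library held 14 fragments. Sprr1a thereby went from percentile 84.7 to percentile 97.2 of the genes above 0 FPKM in the luminal-labelled libraries.

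Its neighbour Sprr1b, a second small proline-rich envelope protein whose gene lies 45.2 kb away (ENSMUSG00000048455, chr3:92436809-92438789, minus strand), was seen in the luminal-labelled libraries alone. It had 0 FPKM in both basal-labelled libraries, 2.61 FPKM in luminal DMSO and 23.2 FPKM in luminal baicalin. With baicalin it rose in the luminal-labelled cells by 2.74 on the log2 scale, the largest change among the 10 genes there, with a ratio of 8.88 (interval 6.45 to 12.5). By the exact interval its luminal-labelled level was at least 11.2-fold higher under DMSO and at least 105-fold higher under baicalin, and against the floor of 3 fragments in the basal-labelled libraries it was 14.4-fold and 130-fold higher. Set against Sprr1a per length, Sprr1b stood at a ratio of 0.165 in luminal DMSO and 0.363 in luminal baicalin.

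Involucrin, the early scaffold of the envelope, is encoded by Ivl (ENSMUSG00000049128, chr3:92570902-92573735, minus strand), 85.0 kb from Sprr1a, and was barely detected. Its level was 0.157 FPKM in basal DMSO from 6 fragments, 0 in basal baicalin, 0.107 in luminal DMSO from 4 fragments and 0.857 in luminal baicalin from 34 fragments. Luminal baicalin stood above the other libraries, and the remaining 3 were near the floor. The change in the luminal-labelled cells was 0.75 on the log2 scale, short of the threshold of 1, with a ratio of 7.97 and a wide interval of 2.84 to 30.9. In the basal-labelled cells the change was -0.21 on the log2 scale, from 6 fragments to none, and by the exact interval the baicalin level was at least 1.203-fold lower. Basal DMSO and luminal DMSO did not differ beyond counting error, with a ratio of 0.684 (interval 0.142 to 2.88). Under baicalin the luminal-labelled level was at least 8.57-fold higher by the exact interval.

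Tgm1, the membrane-bound transglutaminase that crosslinks envelope proteins (ENSMUSG00000022218, chr14:55700009-55713926, minus strand), was at a similar low level in 3 libraries. It stood at 1.80 FPKM in basal DMSO, 1.51 in basal baicalin, 2.08 in luminal DMSO and 5.39 in luminal baicalin, the one library set apart. The basal-labelled change was -0.16 on the log2 scale, with a ratio of 0.840 whose interval, 0.634 to 1.11, included no change. With baicalin it rose in the luminal-labelled cells by 1.06 on the log2 scale, just past the threshold, with a ratio of 2.60 (interval 2.12 to 3.21). The luminal-labelled level was 1.15 times the basal-labelled level under DMSO (interval 0.888 to 1.5) and 3.56 times under baicalin (interval 2.84 to 4.51). Tgm1 overlaps the antisense gene Gm49067, which stood at no more than 0.337 FPKM in any library.

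The differentiation keratins did not move together. Krt10, the type I keratin of suprabasal epidermis (ENSMUSG00000019761, chr11:99385254-99389364, minus strand), stood at 0.762 FPKM in basal DMSO, 0.793 in basal baicalin, 2.17 in luminal DMSO and 6.16 in luminal baicalin. The basal-labelled pair did not differ beyond counting error, with a ratio of 1.04 (interval 0.623 to 1.74), and both luminal-labelled libraries lay above it. With baicalin the gene rose in the luminal-labelled cells by 1.17 on the log2 scale, a ratio of 2.83 (interval 2.22 to 3.64). Its usual partner Krt1, the type II keratin with which it forms filaments, was far lower at 0.0114, 0.0335, 0.0585 and 0.878 FPKM in the same order of libraries. Krt1 over Krt10 was thus 0.0269 per length in luminal DMSO and 0.142 in luminal baicalin. Krt10 overlaps the antisense gene Gm11940, which did not exceed 0.473 FPKM.

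Krt4 and Krt13 form the keratin pair of non-cornified internal squamous epithelia such as the oesophagus, and the data held little of either. Krt4 (ENSMUSG00000059668, chr15:101918535-101924735, minus strand) stood at 0.779 FPKM in basal DMSO, 0.116 in basal baicalin, 1.60 in luminal DMSO and 0.499 in luminal baicalin. Unlike the other genes detected in the 4 libraries, it was lower with baicalin in the luminal-labelled as well as the basal-labelled cells. Its change was -0.67 on the log2 scale in the basal-labelled cells, a level 6.74-fold lower (interval 2.62 to 22.1). The luminal-labelled change was -0.79 on the log2 scale, a level 3.20-fold lower (interval 1.95 to 5.45). Neither passed the threshold of 1 with 1 FPKM added, although both intervals excluded equal levels. Krt13 (ENSMUSG00000044041, chr11:100117327-100121566, minus strand) had 5 fragments in basal baicalin, 0.135 FPKM, and none in the other libraries, and no pair of libraries differed beyond counting error.

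Sbsn encodes suprabasin, a secreted protein of the suprabasal layers (ENSMUSG00000046056, chr7:30751471-30756134, plus strand), and it ran parallel to Sprr1a with better counts. It stood at 7.27 FPKM in basal DMSO, 3.78 in basal baicalin, 16.2 in luminal DMSO and 43.8 in luminal baicalin. The order of the 4 libraries was that of Sprr1a, and each step in it was beyond counting error. With baicalin, Sbsn rose in the luminal-labelled cells by 1.38 on the log2 scale, a ratio of 2.70 (interval 2.53 to 2.89). The basal-labelled change was -0.79 on the log2 scale, short of the threshold, at a level 1.92-fold lower (interval 1.66 to 2.23). The luminal-labelled level was 2.23 times the basal-labelled level under DMSO (interval 2.01 to 2.48) and 11.6 times under baicalin (interval 10.3 to 13.2). The same-strand gene Tmem147os overlaps Sbsn and did not exceed 0.340 FPKM.

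Klf4, a zinc-finger transcription factor needed for the epidermal barrier (ENSMUSG00000003032, chr4:55527143-55532466, minus strand), had a pattern of its own. It stood at 34.1 FPKM in basal DMSO, 41.0 in basal baicalin, 19.3 in luminal DMSO and 54.3 in luminal baicalin. Alone among the 7 genes above 0 in all libraries, it was lowest in luminal DMSO. In the luminal-labelled cells it rose with baicalin by 1.44 on the log2 scale, a ratio of 2.81 (interval 2.63 to 3.01). The basal-labelled change was smaller, 0.26 on the log2 scale, a ratio of 1.2 (interval 1.13 to 1.27). Between the labels, the luminal-labelled level was 1.77-fold lower under DMSO (interval 1.64 to 1.90) and 1.32 times the basal-labelled level under baicalin (interval 1.26 to 1.40).

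Dsg3, the desmosomal cadherin desmoglein 3 that is found in the lower layers of stratified epithelia (ENSMUSG00000056632, chr18:20510274-20547459, plus strand), was the most abundant of the 10 in both luminal-labelled libraries. It stood at 23.1 FPKM in basal DMSO, 8.68 in basal baicalin, 70.8 in luminal DMSO and 173 in luminal baicalin. From 1228 to 24885 fragments lay behind these levels, and the order of libraries was again that of Sprr1a and Sbsn. With baicalin it fell in the basal-labelled cells by 1.32 on the log2 scale, a level 2.67-fold lower (interval 2.50 to 2.85). In the luminal-labelled pair it rose by 1.28 on the log2 scale, a ratio of 2.44 (interval 2.38 to 2.50). The luminal-labelled level was 3.06 times the basal-labelled level under DMSO (interval 2.94 to 3.19) and 19.9 times under baicalin (interval 18.8 to 21.1).

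Between the cell labels, 3 of the 7 genes above 0 in all libraries were higher by more than 1 in luminal-labelled cells under DMSO (Sprr1a, Sbsn and Dsg3), against 4.71% of genes, and none was lower, against 3.86%. Under baicalin 5 of the 7 were higher by more than 1, with Tgm1 and Krt10 added, against 5.24% of genes, and none was lower, against 2.99%. With no filter Sprr1b was added to both, making 4 of 10 under DMSO, against 1.77%, and 6 of 10 under baicalin, against 1.92%, and none of the 10 was lower, against 1.33% and 1.07%. These comparisons use the libraries of the baicalin comparisons again, so they are not separate evidence. The difference in log2 change with baicalin between the labels, luminal minus basal, was 3.84 for Sprr1a, 2.74 for Sprr1b, 2.59 for Dsg3 and 2.17 for Sbsn. For Tgm1, Klf4 and Krt10 it was 1.21, 1.19 and 1.15, for Ivl 0.96, and for the low keratins Krt4 and Krt13 it was -0.12 and -0.18.

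Sprr1a, Sprr1b and Ivl lie in the epidermal differentiation complex, a cluster of envelope, filaggrin and S100 genes on chromosome 3, whose span was taken as S100a1 to S100a10 (chr3:90511034-93564643) after values had been seen. Of its 75 coding genes, 25 were above 0 FPKM in basal DMSO, 21 in basal baicalin, 42 in luminal DMSO and 49 in luminal baicalin, and 18 were at 0 in all 4. At 1 FPKM or more the counts were closer, at 12, 13, 15 and 18 in the same order. Of all 54446 genes, 20939, 20898, 22060 and 22099 were above 0 FPKM in these libraries. With baicalin, 9 of the 75 rose in the luminal-labelled cells, Sprr1a and Sprr1b among them, and none fell, against 0.909% and 0.658% of all 54446 genes. In the basal-labelled cells 3 rose (S100a7a, Lce1g and Crct1) and Sprr1a was the 1 gene that fell, against 0.823% and 1.17%. Also named after their values were seen, Pglyrp3, which encodes a secreted peptidoglycan recognition protein, stood at 71.5, 78.4, 7.93 and 70.4 FPKM, and the cysteine-rich envelope gene Crct1 at 3.43, 12.9, 1.11 and 7.22 FPKM, in basal DMSO, basal baicalin, luminal DMSO and luminal baicalin. These neighbours were, unlike Sprr1a and Sprr1b, lower in luminal-labelled than basal-labelled cells under DMSO.

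**Figure D3:**
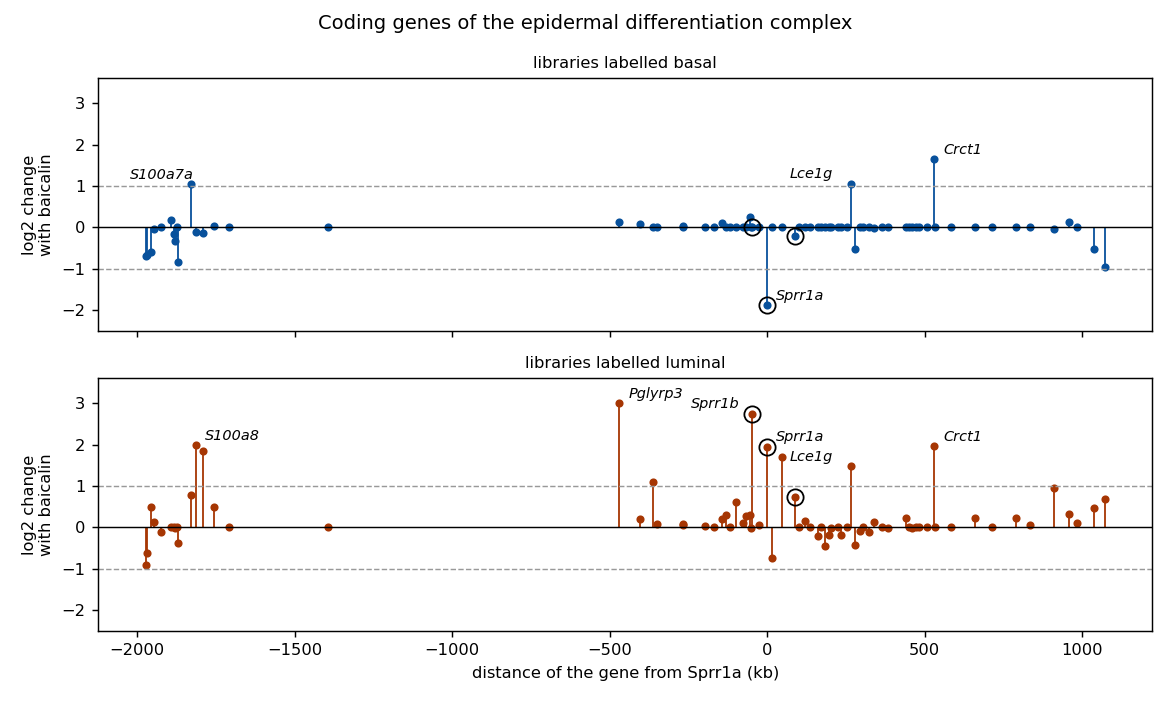
Change with baicalin on the log2(FPKM + 1) scale of the 75 coding genes of the epidermal differentiation complex against their distance from Sprr1a in kb, for the basal-labelled pair above and the luminal-labelled pair below, with rings on Sprr1b, Sprr1a and Ivl and dashed lines at a change of 1. Most genes lie at or near 0, 9 rise in the luminal-labelled pair, and in the basal-labelled pair 3 rise and Sprr1a falls.

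A wider list of 138 genes of the squamous program, grouped by role, was set beside the 10. It was written with earlier results of these data known, so its counts are not independent support for their pattern. Of the 138 genes, 137 were in the table and 85 were above 0 in all libraries. In the luminal-labelled cells 29 of the 85 rose with baicalin and 2 fell, with a median change of 0.48, against the 2.37% and 1.59% of all genes. Of the 85, in the basal-labelled cells, 4 rose and 18 fell, with a median of -0.28, against 2.15% and 3.33%. Luminal-labelled against basal-labelled, 26 were higher and 12 lower under DMSO, against 4.71% and 3.86% of all genes, and 42 were higher and 4 lower under baicalin, against 5.24% and 2.99%. For baicalin, the shares of all genes, 2.37% risen and 1.59% fallen in the luminal-labelled and 2.15% and 3.33% in the basal-labelled cells, are the background of each class described next.

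More of the other envelope precursors were above 0 FPKM in the luminal-labelled libraries, many of them on few fragments. Lce1d and Sprr2k, for instance, had 1 fragment in each luminal-labelled library, under the floor of 3. The class summed to 32.8 FPKM in basal DMSO, 28.6 in basal baicalin, 32.5 in luminal DMSO and 63.9 in luminal baicalin. Among all 54446 genes, 20939, 20898, 22060 and 22099 were above 0 in the same order. Of 46 found, 9 were above 0 in basal DMSO, 8 in basal baicalin, 24 in luminal DMSO and 28 in luminal baicalin, and 6 were above 0 in all libraries. Of these 6, Lce1g, a late cornified envelope protein, rose in both labels, from 0.381 to 1.87 FPKM in the basal-labelled and from 1.45 to 5.86 FPKM in the luminal-labelled cells. Ppl, the envelope plakin periplakin, was the most abundant at 17.6 to 24.4 FPKM and passed the threshold in neither. Scel, the envelope protein sciellin, was outside the filter at 0.141, 0, 3.57 and 14.3 FPKM, and rose in the luminal-labelled cells by 1.74 on the log2 scale. Among the enzymes that crosslink and process envelope and barrier components, 9 of 17 rose in the luminal-labelled cells and none fell, while 1 rose and 4 fell in the basal-labelled cells. The desquamation proteases Klk6 and Klk7 went from 3.65 to 28.2 FPKM and from 4.55 to 35.5 FPKM in the luminal-labelled cells. Klk6 in the basal-labelled cells went from 7.12 to 0.619 FPKM, and Casp14, the caspase that processes filaggrin, rose there from 1.24 to 18.1 FPKM. Casp14 rose in the luminal-labelled cells as well, from 2.59 to 10.9 FPKM.

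The stratified and stress keratins differed between the labels, with 5 of 10 risen and 1 fallen in the luminal-labelled cells, and none risen and 4 fallen in the basal-labelled cells. Krt6a and Krt16, a keratin pair of wounded and hyperproliferative epidermis, went from 107 to 539 FPKM and from 37.9 to 199.6 FPKM in the luminal-labelled cells. Both were low in basal baicalin, and in the basal-labelled cells they went from 67.3 to 3.14 FPKM and from 19.5 to 1.83 FPKM. Krt6a shares long stretches with Krt6b, and Krt16 with the gene Gm11597, so their levels are uncertain. Krt17 was the most abundant of the class, at 358 FPKM in luminal DMSO and 1140.0 FPKM in luminal baicalin, and Krt15, a keratin of basal cells, was the one that fell there, from 42.6 to 4.00 FPKM. Of 17 secreted and surface proteins, 8 rose and none fell in the luminal-labelled cells, and none rose and 8 fell in the basal-labelled cells. Dmkn, the secreted protein dermokine, went from 81.6 to 246 FPKM in the former and from 6.04 to 0.585 FPKM in the latter. Anxa1, a membrane-binding annexin, had the highest mean over the 4 libraries. It stood at 930 and 516 FPKM in the basal-labelled cells and 255 and 561 FPKM in the luminal-labelled cells. Ly6d was above Anxa1 in the luminal-labelled cells, at 749 FPKM with DMSO and 713 FPKM with baicalin.

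Regulators had the smallest median change of the 6 classes in the luminal-labelled cells. Of 22, 3 rose and 1 fell in the luminal-labelled cells, with a median of 0.14 that was below the 0.48 of the whole list, and 1 rose and 1 fell in the basal-labelled cells, near the background of 2.15% and 3.33%. Prdm1, a transcriptional repressor that acts in terminal differentiation, and Grhl3, a barrier transcription factor, rose in the luminal-labelled cells, from 1.98 to 6.09 FPKM and from 7.15 to 18.1 FPKM. The Notch ligand gene Jag1 also rose in the luminal-labelled cells, from 74.1 to 175 FPKM, and was the most abundant of the regulators in luminal baicalin. In the basal-labelled cells Jag1 went from 28.0 to 13.7 FPKM, short of the threshold. Trp63, the master regulator of stratified epithelia and one of the basal markers, went from 6.01 to 0.306 FPKM in the basal-labelled cells and was at 25.2 and 27.0 FPKM in the luminal-labelled cells. Among 13 desmosome components, 3 rose in the luminal-labelled cells, and 1 rose and 1 fell in the basal-labelled cells. Beside Dsg3, Cdsn, the corneodesmosome protein corneodesmosin, rose in both labels, from 4.83 to 13.95 FPKM in the basal-labelled and from 5.50 to 34.4 FPKM in the luminal-labelled cells. Dsc3, a desmocollin of basal layers, fell from 1.98 to 0.183 FPKM in the basal-labelled cells. Perp, which had the highest mean of the class over the 4 libraries, was at 209 to 755 FPKM.

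**Figure D4:**
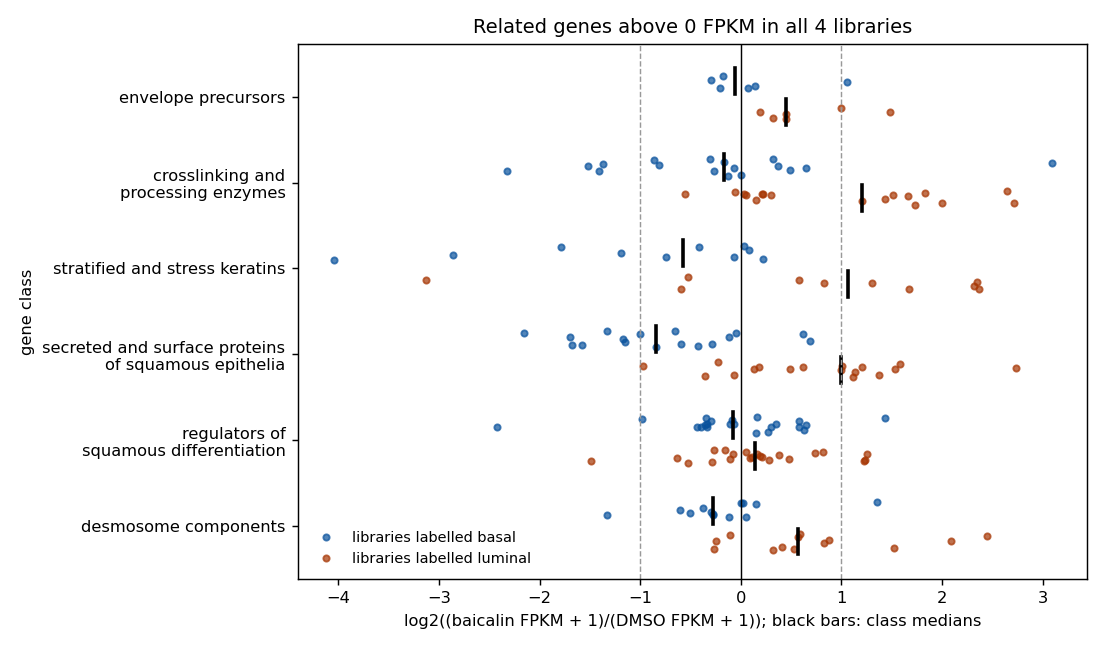
Change with baicalin on the log2(FPKM + 1) scale of the 85 related genes above 0 FPKM in all libraries, 1 point per gene, by class, with the basal-labelled pair in blue, the luminal-labelled pair in red, black bars at class medians and dashed lines at a change of 1. In the luminal-labelled pair the class medians run from 0.14 for regulators to 1.2 for crosslinking and processing enzymes, and in the basal-labelled pair all 6 medians are below 0.

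Some marker lists moved alongside. In the basal-labelled cells, where Sprr1a and Dsg3 fell, 3 of the 10 basal markers fell too (Krt5, Krt14 and Trp63), Krt5 from 128 to 3.01 FPKM. Of all filtered genes, 3.33% fell there and 2.15% rose. Of the 10 luminal markers 2 fell there as well, Krt8 from 1573 to 754 FPKM and Muc1 from 7.94 to 0.672 FPKM. None of the luminal markers rose past the threshold, but 3 were higher with baicalin, among them Cldn4, from 273 to 476 FPKM. The leukocyte marker Lyz2 fell from 8.84 to 2.17 FPKM. In the luminal-labelled cells 3 of the 10 basal markers fell (Oxtr, Cnn1 and Tagln) and none rose past the threshold. Of the same 10, 5 were higher with baicalin, among them Krt14, from 2308 to 3132 FPKM. The luminal marker Krt19 fell and the luminal marker Cldn4 rose. Of 7 fibroblast markers Pdgfra fell, while 6 were higher, none past the threshold. Of all filtered genes, 1.59% fell in these cells and 2.37% rose. The 10 markers of epidermal keratinocytes all belong to the wider list above as well, so they are not separate evidence. They summed to 1.36 FPKM in basal DMSO, 18.3 in basal baicalin, 5.51 in luminal DMSO and 21.6 in luminal baicalin. Casp14 was the largest part of the sum in both baicalin libraries. Dsg1a, a desmoglein of the upper epidermis, stood at 2.57 FPKM in luminal DMSO and rose with baicalin to 9.28 FPKM, which is 3.61 times as much (interval 3.16 to 4.13), though it shares long stretches with Dsg1b. Krt1, described above, went from 5 to 80 fragments there (interval of the ratio 6.17 to 47.4). Among the other defining markers, Krt2 was at 0 in all 4 libraries, Flg was at 0 in both basal-labelled libraries and at 0.188 FPKM in luminal baicalin, and Lor did not exceed 0.245 FPKM. The part of these shifts in the levels of the squamous genes was not tested.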

How the data were processed

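Bulk mRNA was measured in 4 libraries, 1 per group, with groups taken from the labels. Per the study's methods, the authors made stranded libraries from oligo(dT)-enriched RNA, mapped reads with HISAT2 to GRCm38 (Ensembl release 94) and computed the deposited FPKM with featureCounts. The submitters' processing notes also name Bowtie 0.12.2 and mm8, in a role not given in the sources used here. Whether reads were counted by strand is likewise not given, so overlapping antisense genes are uncertain.

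Gene models came from GENCODE mouse release 21. Low FPKM multiplied by exon length fell on whole fragments within 0.05 for 98.4% to 98.6% of values, which gave each library's depth and the fragments behind each gene. These served for exact intervals of ratios and for the 3-fragment floor, not for a test. The median log2 changes of all filtered genes were within 0.1 of 0. Copies were searched for among transcripts at 95% identity over at least 150 bases, and none of the 10 genes had one outside the overlapping genes named. Promoters came from the RefSeq table.

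The 10 genes, the wider list and the markers were written with earlier results of these data known. Named were all 10 genes and, from each class of the wider list, the 2 largest rises and falls per baicalin comparison at 5 FPKM or more in a library. The most abundant gene of each class, by its mean over the 4 libraries, was named as well. Not every gene the rule selects is reported. Computation used Python 3.11.15, pandas 2.3.3 and scipy 1.17.1, and the computation was tested on simulated data. Alternatives were the pseudocount, the filter, scaling to TPM and the threshold.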

Additional observations from a re-analysis of the deposited data

Results flagged for a closer look

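For 4 of the 10 squamous genes the change with baicalin went in opposite directions in the basal-labelled and luminal-labelled cells, each beyond counting error. The difference in log2 change, luminal minus basal, was 3.84 for Sprr1a, 2.59 for Dsg3, 2.17 for Sbsn and 0.96 for Ivl. With 1 library per group these differences were not tested against the spread between cultures. For Ivl, at most 6 fragments lay behind each library other than luminal baicalin.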

How the results depend on the processing

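Under the alternatives, 56 of 64 counts of squamous genes past the threshold were equal to the reported count or within 1.5 times of it, and 8 were not. Each comparison had a direction with a reported count of 0, which was taken as kept where it stayed 0. At a threshold of 2, among the 7 genes above 0 in all libraries, the counts of genes lower with baicalin in basal-labelled cells, higher with baicalin in luminal-labelled cells, and higher in luminal-labelled than basal-labelled cells under DMSO were each 0, and that under baicalin was 3. With baicalin, in luminal-labelled cells, 1 gene, Krt4, became lower by more than 1 with a pseudocount of 0.1, with none, and on the TPM scale, where the reported count was 0. With no pseudocount, 5 genes were higher in luminal-labelled cells under DMSO. No value past the threshold changed sign. A smaller or absent pseudocount can only enlarge a change between levels above 0, so this outcome and the next were partly fixed in advance. Of 356 values recomputed for genes past the threshold, 355 stayed past it, and the exception was Perp on the TPM scale, at 0.91 against 1.02 for luminal-labelled against basal-labelled cells under DMSO.

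Over all genes, the counts of higher and lower genes with baicalin were 383 and 592 in basal-labelled and 421 and 282 in luminal-labelled cells. They were 1629 and 1832, and 1497 and 1391, with no pseudocount; 1123 and 1302, and 1052 and 913, with a pseudocount of 0.1; 696 and 1002, and 718 and 578, on the TPM scale; and 41 and 132, and 60 and 46, at a threshold of 2. Between the labels, counts of higher and lower genes under DMSO and under baicalin were 837 and 686, and 932 and 531. The same alternatives gave 2673 and 1859, and 2534 and 1849; 2027 and 1467, and 2030 and 1327; 1306 and 1279, and 1439 and 1083; and 185 and 150, and 242 and 59.

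No paired analysis was possible because each group has 1 library and the labels carry no replicate numbers. Depth limits Ivl, Krt13 and Krt4, whose levels rest on few fragments, and no statement here covers the spread between cultures.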
